A study of Rattus norvegicus with 24 samples.

Results

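Respiratory chain and ATP synthase genes were examined on 24 two-colour cDNA arrays of rat kidney RNA. They were taken as all probes with a value on at least 1 array whose single gene symbol begins with Nduf, Sdha to Sdhd, Uqcr, Cox4 to Cox8 or Atp5, or is Cyc1 or Cycs. This gave 19 genes, each at 1 probe, of 1313 named genes and 1561 probes with a value. Complex I was represented by Ndufa5 and the assembly factor Ndufaf3. Complex II had no member, and complex III had Uqcrfs1. Cytochrome c was represented by Cycs. Complex IV had 8 members, namely Cox4i1, Cox5a, Cox5b, Cox6a1, Cox6a2, Cox6c, Cox7a2 and Cox8a. Complex V, the ATP synthase, had 7, namely Atp5f1a, Atp5f1b, Atp5f1c, Atp5f1d, Atp5f1e, Atp5pb and Atp5pf.

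The study compared the salt-sensitive SS rat with strain 13, known from the study to be an SS rat whose chromosome 13 comes from the Brown Norway rat. Both were on a low-salt (LS) or a high-salt (HS) diet for 2 weeks, abbreviations read from what is known of the study. The groups are therefore SS on LS, SS on HS, 13 on LS and 13 on HS, and all share the SS background outside chromosome 13. 0 of the 19 members lie on that chromosome. The substitution covers a whole chromosome, so a strain difference cannot be assigned to 1 gene, and age, sex and the number of animals per RNA are not stated. The sample labels name kidney as the tissue, and the title of the series names the renal medulla. Each of the 4 comparisons (HS against LS in strain 13, HS against LS in SS, 13 against SS on LS, 13 against SS on HS) had 3 RNA pairs. Each pair was hybridised on 2 arrays with the dyes exchanged. Whether the pairs are separate animals is not labelled, and a p-value here reflects no more than the spread of these samples, in part perhaps technical.

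Values are the deposited log ratios, whose log base is not given in the sources used here, so they are given as log ratios and not as folds. A positive value means higher on HS or in strain 13. That direction is likely and not certain, because only 1 diet array has a title that names its channels. If it is wrong, all signs turn together. The number of probes with a value ran from 726 to 1402 per array. One array of the LS strain comparison had the fewest values and the widest spread of log ratios, and 1 array of the SS diet comparison has a title whose opening names strain 13 while its channels name SS. Results that moved without either are given so. The titles of the other SS diet arrays name no strain.

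The respiratory chain passes electrons from NADH and succinate through complexes I to IV to oxygen and pumps protons across the inner mitochondrial membrane, and the ATP synthase uses the returning protons to make ATP. Cytochrome c is the small soluble carrier between complexes III and IV, and it is also released from mitochondria in apoptosis. In the kidney this ATP drives tubular sodium transport, above all in the proximal tubule and the thick ascending limb, while the inner medulla relies more on glycolysis.

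The members were measured on nearly every array. Of the 19 members, 17 had a value on all 24 arrays (89.5%), against 548 of 1561 probes (35.1%). Atp5pb had a value on 23 arrays. Complex IV has tissue-specific isoforms, and these differed in how often they had a value. Cox6a1, Cox7a2 and Cox8a, the forms found in kidney and liver, had a value on all arrays. Cox6a2, the heart and muscle form of subunit VIa, had a value on 3 arrays, which read 0.45, 0.13 and 0.24 and came from 3 different comparisons. It could not be tested. Cox8b, the heart and muscle form of subunit VIII, is listed on the array with no value on any sample. The spot filter is not given, so a missing value cannot be read as absence of the transcript. The remaining 18 members had values in every RNA pair and are the ones described from here on.

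Promoter sequences of 17 members were found in RefSeq (build GRCr8), and 3 are printed because the results turn on these genes or because they show the element most frequent in the group. The windows run from 250 bases before to 30 bases after the annotated start, 5′ to 3′ on the gene's strand, in lower case. Capitals mark CCGGAAG, an ETS-type element of the kind bound by nuclear respiratory factor 2 (GABP), and TGCGCA, part of the nuclear respiratory factor 1 element, on either strand. Cycs is the member that lay apart from the others between strains on LS (chr4:80984738-80985017, minus strand). Cox5b was above 0 in all RNA pairs of both strain comparisons (chr9:46417587-46417866, plus strand). Cox4i1 carries the ETS-type element at 2 places downstream of its start (chr19:65630133-65630412, plus strand).
Cycs: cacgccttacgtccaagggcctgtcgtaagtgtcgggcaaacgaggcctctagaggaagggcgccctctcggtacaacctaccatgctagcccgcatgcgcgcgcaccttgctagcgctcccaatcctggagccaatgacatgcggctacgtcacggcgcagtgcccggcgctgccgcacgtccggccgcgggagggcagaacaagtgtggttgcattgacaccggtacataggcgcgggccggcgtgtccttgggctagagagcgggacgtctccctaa
Cox5b: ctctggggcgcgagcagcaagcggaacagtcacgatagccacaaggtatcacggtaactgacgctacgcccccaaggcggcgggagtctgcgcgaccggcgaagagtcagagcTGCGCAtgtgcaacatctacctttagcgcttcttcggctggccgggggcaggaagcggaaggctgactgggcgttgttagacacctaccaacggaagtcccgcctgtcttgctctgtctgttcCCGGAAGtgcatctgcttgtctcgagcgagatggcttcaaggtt
Cox4i1: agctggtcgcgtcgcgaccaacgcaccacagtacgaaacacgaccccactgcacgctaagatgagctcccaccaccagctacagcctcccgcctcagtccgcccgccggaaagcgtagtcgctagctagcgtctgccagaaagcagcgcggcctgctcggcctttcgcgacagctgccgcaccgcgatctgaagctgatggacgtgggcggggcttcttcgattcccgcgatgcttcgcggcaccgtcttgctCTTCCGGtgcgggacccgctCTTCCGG

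Cox5b held 1 ETS-type match and 1 TGCGCA match, and the Cycs window held neither run of letters. Only these exact letters were searched for, so a variant of either element would not be marked. Over the full windows of 300 bases (to 50 bases after the start) and both strands, CCGGAAG was found in 6 of 17 members (35.3%; Atp5f1a, Atp5pf, Cox4i1, Cox5b, Cox7a2 and Cox8a), against 9.24% of 27365 rat promoters of the same length. TGCGCA was found in 3 of 17 (17.6%; Atp5pb, Cox5b and Ndufa5), against 7.7%. The cAMP response element TGACGTCA was found in 1, Cox8a, against 1.91% of all promoters. The TATA box letters TATAAA were found in 0 of 17, against 14.2%. No motif contains another. The members' windows had a median of 59.7% G and C, against 52.3% in all promoters, and a match describes letters in a window and not a bound site.

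No member passed the test in any comparison. For every gene the mean of 3 RNA pairs was tested against 0 with limma across all probes, with Benjamini-Hochberg adjustment and a threshold of 0.05 (two-sided). The 95% confidence intervals of the members had half-widths of 0.13 to 0.24 around each mean log ratio, with a median of 0.16. Of 90 member intervals over 4 comparisons and the difference between strains in the salt response, 70 lay within -0.3 and 0.3 and 89 within -0.5 and 0.5. The exception was Cycs between strains on LS.

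**Figure D1:**
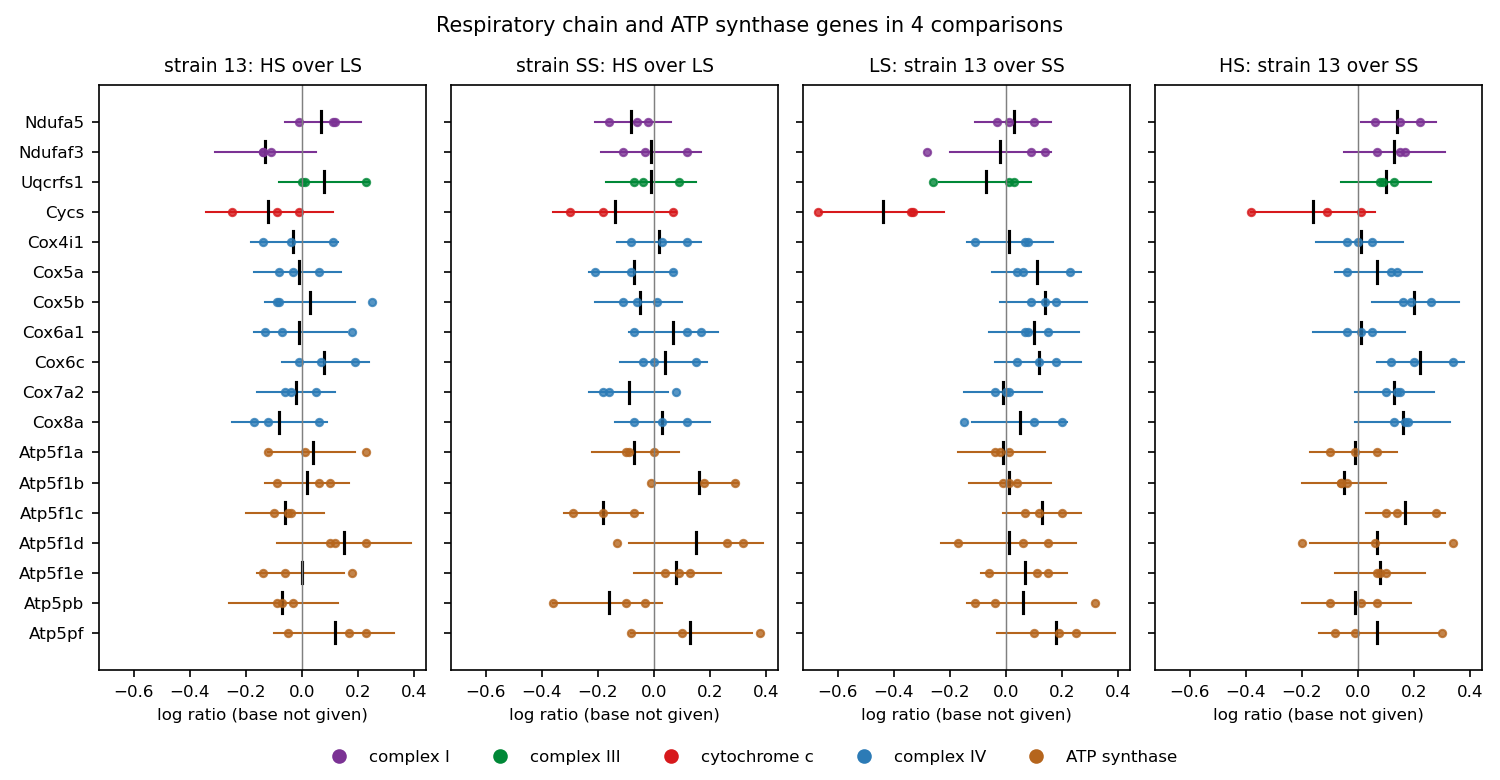
Log ratios of 18 respiratory chain and ATP synthase genes in the 4 comparisons. Points are the 3 RNA pairs, black ticks their mean and lines the 95% confidence interval of the mean; the vertical line marks equal levels. Most points lie within 0.3 of 0, and Cycs on LS lies at -0.67, -0.33 and -0.34.

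HS was first compared with LS in the salt-sensitive SS strain. Here 0 of 18 members were called, against 2.82% of 1310 probes (37), and 2 members (11.1%) had an unadjusted p below 0.05, against 255 of all probes (19.5%). The members' median log ratio was -0.01, the same as that of all probes, and 8 of 18 were above 0. The lowest adjusted p-values belonged to 3 subunits of the ATP synthase, and they lay on both sides of 0.

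Atp5f1c, the γ subunit that forms the rotating central stalk of the F1 part, had log ratios of -0.18, -0.29 and -0.07 in SS, a mean of -0.18 ± 0.11 (SD, n = 3; limma adjusted p = 0.158). All 3 pairs were below 0. Atp5f1b, the catalytic β subunit, had 0.18, 0.29 and -0.01, a mean of 0.16 ± 0.15 (SD, n = 3; limma adjusted p = 0.233). Replicates 1 and 2 were high and replicate 3 was at 0, so the pairs reached across 0. Without the array with the conflicting title, Atp5f1b had a mean of 0.24 (limma adjusted p = 0.0473), and replicate 3 then rested on its forward array alone, which read 0.26 where the array left out read -0.27. Atp5pb, subunit b of the peripheral stalk, had -0.03, -0.36 and -0.10, a mean of -0.16 ± 0.17 (SD, n = 3; limma adjusted p = 0.342), of which replicate 2 made up most.

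Among the other ATP synthase subunits, Atp5pf (F6, peripheral stalk) and Atp5f1d (δ) had means of 0.13 and 0.15 with pairs on both sides of 0. Atp5f1e (ε) was above 0 in all 3 pairs at a mean of 0.08. Atp5f1a, the α subunit, had a mean of -0.07. Complex IV spanned -0.09 (Cox7a2) to 0.07 (Cox6a1), with a median of 0.02 over 7 genes. Cox7a2, the liver-type subunit VIIa, had pairs of 0.08, -0.16 and -0.18. Cycs had 0.07, -0.30 and -0.18, a mean of -0.14. Ndufa5, an accessory subunit of complex I, had a mean of -0.08, and Uqcrfs1, the Rieske iron-sulphur protein of complex III, one of -0.01.

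The same diets were compared in strain 13. Of the 18 members 0 were called, against 0.0% of 1287 probes, and 0 members had an unadjusted p below 0.05, against 119 of all probes by limma. The median of the members was -0.01 and that of all probes 0.01. Ndufaf3, which helps to assemble complex I, had -0.14, -0.14 and -0.11, a mean of -0.13 ± 0.02 (SD, n = 3; limma adjusted p = 0.629). Its pairs agreed closely with each other and were all below 0, while the 2 arrays of each pair differed more. They read -0.28 and -0.01, -0.04 and -0.23, and -0.23 and 0.01, the forward array first. Atp5f1d had 0.12, 0.23 and 0.10, a mean of 0.15 ± 0.07 (SD, n = 3; limma adjusted p = 0.709), all above 0. Ndufa5 had 0.12, 0.11 and -0.01, a mean of 0.07 ± 0.07 (SD, n = 3; limma adjusted p = 0.728), with 1 pair at 0.

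The RNA pairs of strain 13 differed from each other as a set. The median of the 18 members was 0.10 in replicate 1, -0.04 in replicate 2 and -0.07 in replicate 3, with 12, 7 and 3 members above 0. The SS diet pairs had medians of 0.08, -0.07 and -0.07. In both diet comparisons 1 pair was above 0 and the other two were below it, so the members' median did not hold its sign over replicates. Complex IV followed this pattern in strain 13, with Cox5b, a nuclear-encoded subunit, at 0.25, -0.08 and -0.09 and the largest SD between pairs of any member (0.19).

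Strain 13 was then compared with SS on LS. In this comparison 0 of 18 members were called, against 0.0% of 1229 probes by limma, and 1 member had an unadjusted p below 0.05, against 268 probes. That member was Cycs. Its log ratios were -0.67, -0.33 and -0.34, a mean of -0.44 ± 0.19 (SD, n = 3), with a 95% interval of -0.66 to -0.22 and a limma adjusted p of 0.0904. All 3 pairs were below 0, and none came near 0. The next lowest member was Uqcrfs1 at -0.07.

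Cycs was low on each of the 6 arrays of the LS comparison. The pairs read -0.64 and -0.69, -0.22 and -0.43, and -0.29 and -0.38, the forward array first. The 2 dye orientations lay on the same side of 0 in every pair. The array with the fewest values is the one that read -0.64. Over all 1229 probes, the Cycs mean was the 45th lowest and its unadjusted p the 11th smallest. Its adjusted p of 0.0904 is the lowest in this comparison and is shared by 37 probes. Cycs passed in 2 of 11 alternative settings. With the arrays scaled to equal spread the limma adjusted p was 0.0492 (mean -0.42), and with the dye-swap arrays alone it was 0.0234 (mean -0.50), settings that called 22 and 51 of all probes. In the other settings it ran from 0.0702 to 0.373, the highest without replicate 1 (mean -0.33).

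On HS the Cycs pairs were -0.38, 0.01 and -0.11, a mean of -0.16 ± 0.20 (SD, n = 3; limma adjusted p = 0.372), so replicate 1 was low and the others were nearer 0. In strain 13, HS against LS gave -0.01, -0.25 and -0.09. The difference between the strains in the salt response was 0.15 for Cycs, with a 95% interval of -0.07 to 0.37 (limma adjusted p = 0.48). Its 2 estimates differed, at 0.02 from the diet arrays and 0.28 from the strain arrays. Cytochrome c has many processed pseudogene copies in rodent genomes, and a cDNA probe does not separate transcripts of near-identical sequence, so the Cycs value is uncertain in that respect.

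For the members as a whole on LS, the median was 0.04, against 0.03 for all probes, and 13 of 18 were above 0 (72.2%), against 55.3% of all probes. One of these, Atp5pb, had -0.11, 0.32 and -0.04, a mean of 0.06, and its replicate 2 rested on the forward array alone. Cox5b had 0.09, 0.14 and 0.18, a mean of 0.14 ± 0.04 (SD, n = 3; limma adjusted p = 0.292), with all pairs above 0. Atp5f1c had 0.20, 0.12 and 0.07, a mean of 0.13 ± 0.07 (SD, n = 3; limma adjusted p = 0.262), also all above 0. Without the array with the fewest values, however, the Atp5f1c mean was -0.03, because replicate 1 then rested on its dye-swap array alone (-0.27, against 0.68 on the array left out). Members with all 3 pairs above 0 numbered 6 of 18 (Atp5f1c, Atp5pf, Cox5a, Cox5b, Cox6a1 and Cox6c), against 26.5% of the 1070 probes with 3 pairs. Cycs was the single member with all 3 below 0. Atp5f1b had -0.01, 0.01 and 0.04 and Cox7a2 had -0.04, 0.00 and 0.01, the values closest to equality.

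The strains were also compared on HS, where 14 of 18 members were above 0 (77.8%), against 54.7% of all probes and 59.1% of those with a value on all arrays. Of the 18, 0 were called, against 6.0% of 1350 probes (81), a count that fell to 40 in the fit with a replicate block. An unadjusted p below 0.05 was found for 4 members (22.2%), against 312 of all probes (23.1%). The members' median was 0.08 and that of all probes 0.02, and the medians of the 3 pairs were 0.08, 0.08 and 0.07. Thus the 3 pairs agreed on the members' median here, although by the limma test no single gene passed. With each array centred on its own median the members' median was 0.06.

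Cox6c, a small nuclear-encoded subunit of complex IV, had the lowest adjusted p of any member in the study. By unadjusted limma p, Cycs on LS was lower (0.000956, against 0.00782 for Cox6c). The Cox6c log ratios on HS were 0.34, 0.20 and 0.12, a mean of 0.22 ± 0.11 (SD, n = 3). The interval was 0.07 to 0.38 and the limma adjusted p was 0.0887. Cox5b had 0.26, 0.16 and 0.19, a mean of 0.20 ± 0.05 (SD, n = 3; limma adjusted p = 0.124). Both genes were above 0 in every pair. Atp5f1c had 0.10, 0.28 and 0.14, a mean of 0.17 ± 0.09 (SD, n = 3; limma adjusted p = 0.134), likewise above 0 in all pairs. Ndufa5 had 0.06, 0.22 and 0.15, a mean of 0.14 (limma adjusted p = 0.19).

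Cox8a (0.17, 0.18 and 0.13) and Cox7a2 (0.15, 0.10 and 0.14) showed small values on HS that repeated over pairs but not over dye orientations. Cox8a read -0.02, 0.01 and -0.03 on the forward arrays and 0.37, 0.35 and 0.29 on the dye-swap arrays. Cox7a2 read 0.37, 0.30 and 0.25 on the forward arrays and -0.06, -0.11 and 0.02 on the dye-swap arrays. Members with all 3 pairs above 0 numbered 9 of 18, against 28.3% of the 1252 probes with 3 pairs; beyond those named, they were Ndufaf3, Uqcrfs1 and Atp5f1e. Atp5f1b was the single member with all pairs below 0, at -0.04, -0.06 and -0.06. Atp5f1a, Atp5pb, Cox4i1 and Cox6a1 had means of -0.01, -0.01, 0.01 and 0.01. Cox5a, which had a mean of 0.07, read 0.14, 0.12 and -0.04. Atp5pf and Atp5f1d had the same mean of 0.07 with a wide spread, and Atp5f1d ran from -0.20 to 0.34. By complex, the median was 0.13 for the 7 genes of complex IV and 0.07 for the 7 of the ATP synthase.

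The difference between the strains in the response to salt was taken as the mean of 2 estimates, the diet comparison of strain 13 minus that of SS and the strain comparison on HS minus that on LS. The estimates may share RNAs, which the fit treats as independent. For this difference 0 of 18 members were called, against 0.43% of 1164 probes (5), and 1 member had an unadjusted p below 0.05, against 182 probes by limma. Ndufa5 had 0.14 (interval 0.00 to 0.27, unadjusted p = 0.0483, limma adjusted p = 0.316). The estimate was 0.15 from the diet arrays and 0.12 from the strain arrays. Uqcrfs1 had 0.13 (limma adjusted p = 0.397), 0.09 from diet arrays and 0.17 from strain arrays, and without replicate 1 it was 0.04 and without replicate 3 it was 0.20. Cox7a2 had 0.10 (limma adjusted p = 0.445), and 0.05 without the array with the conflicting title. The members' median was 0.02. The titles of the strain arrays hold a run of numbers that LS and HS arrays share in replicate 3 alone. What it marks is not stated, and in replicates 1 and 2 it cannot be told apart from diet. From replicate 3 alone, the strain arrays gave 0.14 for Ndufa5, 0.07 for Uqcrfs1 and 0.12 for Cox7a2.

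The members also differed in how they varied together over the 12 RNA pairs, taken here as a description. All points share arrays between genes, and some RNAs may recur between comparisons. Over 153 pairs of members the median Pearson's r was 0.254, with a range of -0.74 to 0.85. Between the 548 probes with values on all arrays the median was 0.00929, with a range of -0.97 to 0.99. Within complex IV the median r was 0.495 (7 genes), and Cox6c followed Cox7a2 (0.85) and Cox5b (0.81) most closely. Within the ATP synthase it was -0.00911 (7 genes). The lowest r among all members was between 2 parts of the same F1 motor, Atp5f1b and Atp5f1c (-0.74). Atp5f1d had the lowest median r with the other members (-0.305) and Cox6c the highest (0.48).

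**Figure D2:**
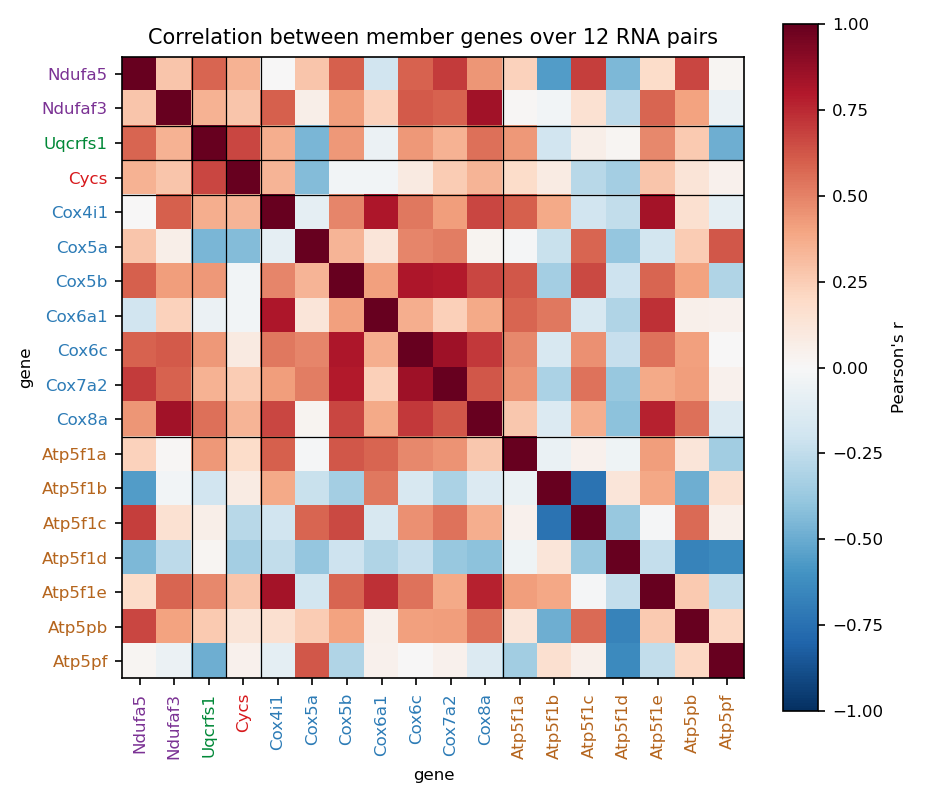
Pearson's r between each pair of 18 member genes over 12 RNA pairs, with genes ordered and coloured by complex (purple complex I, green complex III, red cytochrome c, blue complex IV, brown ATP synthase) and lines between complexes. Cox6c, Cox7a2 and Cox5b form a block of high values, and Atp5f1b and Atp5f1c stand at -0.74.

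A difference between the 2 dye orientations was shared by most members. For scale, the median size of the members' log ratios was 0.06 to 0.09 in each of the 4 comparisons. On the 12 forward arrays, with channel 1 in Cy5, the members' median lay between 0.03 and 0.35 and was above 0 on 12 of 12. On the 12 dye-swap arrays it lay between -0.26 and 0.00 and was above 0 on 0. Averaging the arrays of a pair cancels such an offset, and a value from 1 orientation holds it in full.

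**Figure D3:**
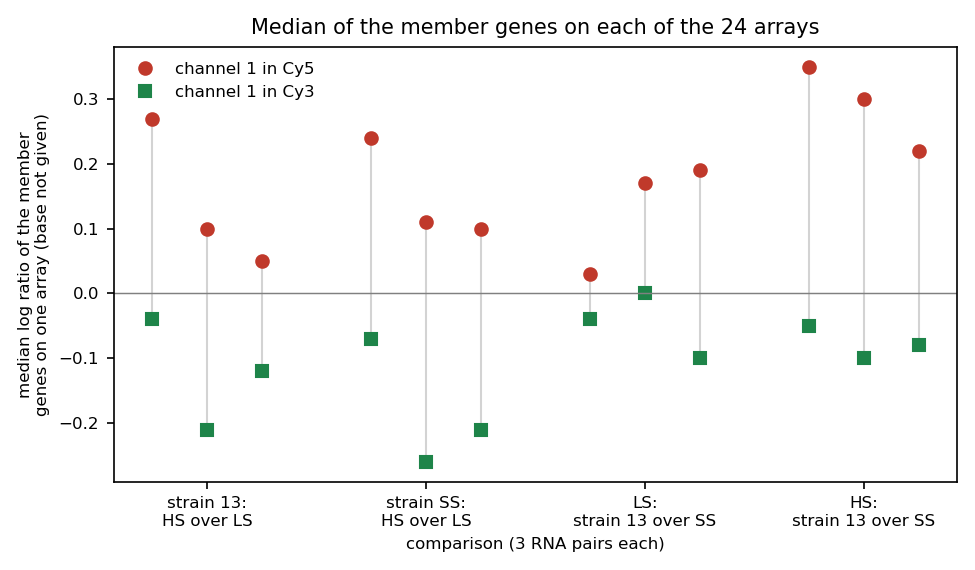
Median log ratio of the member genes on each of the 24 arrays, by comparison. Red circles are arrays with channel 1 in Cy5, green squares arrays with channel 1 in Cy3, and grey lines join the arrays of an RNA pair. All circles lie above 0 and no square does.

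The offset was measured for each probe as the forward log ratio minus the mean of both orientations in each pair and tested against 0 with limma over the 12 pairs, an analysis chosen after the data had been seen. It was past the threshold with Cy5 higher in 13 of 18 members (72.2%), against 24.3% of 1118 probes (272), and with Cy3 higher in 0 members, against 207 probes. The dye named as higher would turn too if all signs were turned. The members' median offset was 0.15 and that of all probes 0.01.

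Atp5f1b and Atp5pb had the largest offsets, each 0.27. For Atp5f1b the 12 pairs ran from 0.01 to 0.52 (SD 0.14; limma adjusted p = 1.67e-05), and all 12 were above 0. Atp5pf followed at 0.24, Cox6c at 0.22 and Cox6a1 at 0.20. Cycs had an offset of 0.03 (SD 0.08, n = 12; limma adjusted p = 0.518), with pairs from -0.14 to 0.17. Uqcrfs1, Cox8a, Atp5f1e and Ndufaf3 did not pass either, with 0.02, -0.02, 0.08 and -0.04. Within complex IV, Cox8a lay apart from the other 6 genes, whose offsets ran from 0.14 to 0.22. The Cox8a pairs ran from -0.20 to 0.30 (SD 0.18).

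**Figure D4:**
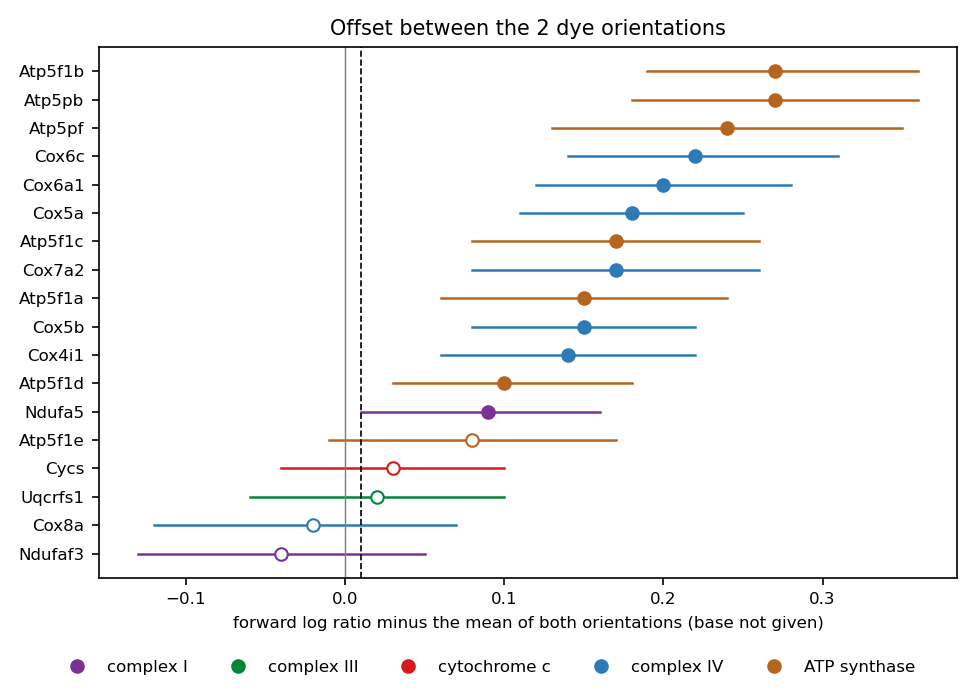
Mean offset between dye orientations for 18 member genes, as the forward log ratio minus the mean of both orientations over 12 RNA pairs (11 for Atp5pb), with 95% confidence intervals. Filled points passed the adjusted threshold, open points did not, colours give the complex, and the dashed line is the median of all probes (0.01). The values run from -0.04 (Ndufaf3) to 0.27 (Atp5f1b).

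Other genes of mitochondrial energy metabolism were set beside the members. From here, on LS or on HS alone names strain 13 against SS on that diet. For the counts at an unadjusted p below 0.05 that follow, the share of all probes was 9.25% to 23.1% by comparison. Of 4 measured genes of the citric acid cycle and pyruvate metabolism, 0 were called by limma, and 3 of 20 tests had an unadjusted p below 0.05. All 4 were below 0 in SS on HS against LS (median -0.15), where Idh3g, the regulatory γ subunit of mitochondrial isocitrate dehydrogenase, had -0.18, -0.29 and -0.21 (limma adjusted p = 0.0706). Idh3g had -0.22 on LS and 0.27 for the difference in salt response (limma adjusted p = 0.0593). Pyruvate carboxylase (Pc) had the lowest p of the list in strain 13 (-0.23) and on HS. Its pairs on HS were -0.72, -0.07 and -0.17, of which replicate 1 made up most.

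Fatty acid oxidation feeds electrons into the same chain, and 0 of its 12 or 13 tested genes were called by limma, with an unadjusted p below 0.05 in 17 of 61 tests. In SS, 1 of 12 was above 0 (median -0.14), and Echs1, an enoyl-CoA hydratase, had -0.09, -0.30 and -0.43 (limma adjusted p = 0.0829). On LS the median was -0.18 over 13 genes, and Acadl, the long-chain acyl-CoA dehydrogenase, had -0.46, -0.27 and -0.28 with the same adjusted p as Cycs (0.0904). On HS the median was 0.03, and Cpt1b, the muscle-type carnitine palmitoyltransferase, had 0.52, 0.54 and 0.35 (limma adjusted p = 0.0505). Acads had -0.27 in strain 13, and Cpt1a 0.24 for the difference in salt response.

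Among 4 carriers and membrane proteins 0 were called by limma (1 of 20 tests with an unadjusted p below 0.05). Slc25a3, which imports the phosphate used by the ATP synthase, had 0.30, 0.26 and 0.14 on HS (limma adjusted p = 0.0505). Its 3 pairs were above 0, as were those of Cox6c and Cox5b and of 28.3% of all probes with 3 pairs. Of the 4 genes of this list 2 were above 0 on HS (median -0.02). Slc25a3 had -0.10 in SS and 0.14 for the difference in salt response. Tspo had 0.35, 0.01 and 0.01 on LS, a value that rests on replicate 1, and Slc25a10 had -0.12 in strain 13. Of 4 genes of antioxidant defence and protein assembly 0 were called by limma (2 of 20 tests with an unadjusted p below 0.05), and the mitochondrial superoxide dismutase Sod2 had -0.22 on LS and -0.12 on HS. Hspe1 had -0.19 in strain 13, and Gpx1 had 0.16 in SS and -0.20 for the difference in salt response. Glycolysis gave 1 called gene of 10 tested on HS, against 6.0% of all probes, and an unadjusted p below 0.05 in 10 of 47 tests by limma. The called gene was Ldhb, a lactate dehydrogenase subunit, at 0.40, 0.51 and 0.25 on HS (limma adjusted p = 0.0177). Ldhb had 0.21 for the difference in salt response. Of 10 glycolytic genes on HS, 9 were above 0 (median 0.14). Eno2 had the lowest p of that list in both diet comparisons (0.16 and 0.21), and Eno1 on LS (0.15).

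Cell type markers differed between the same samples, which are bulk RNA, in which fewer cells of a type and less RNA per cell cannot be told apart. Of 25 proximal tubule marker symbols 12 had a value and 13 had none, among them Slc34a1, Slc5a2 and Hnf4a. Of the symbols with none, G6pc is an older name of G6pc1, which had a value on 11 arrays. Between strains on LS, 11 of 11 tested were below 0 (median -0.36). Their medians were -0.41, -0.13 and -0.49 in the pairs in which Cycs had -0.67, -0.33 and -0.34. Between strains on HS, 10 of 10 were below 0 (median -0.43). Cyp2c23, Gatm and Cyp2e1 were lower in strain 13 than in SS there, with log ratios of -1.19, -1.02 and -0.67 (limma adjusted p = 0.0197, 0.0236 and 0.0281). Collecting duct markers went the other way between strains, with 5 of 5 above 0 on LS (median 0.23) and on HS (median 0.35). Fxyd4, Aqp3 and Scnn1a were higher in strain 13 than in SS on HS, at 0.49, 0.35 and 0.38. Of the thick ascending limb and distal tubule markers 4 of 4 were above 0 on HS between strains (median 0.17), with Egf at 0.29.

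In the diet comparison of strain 13, 1 of 11 proximal tubule markers was above 0 (median -0.35), and Cyp2c23 had the lowest p at -0.72 (limma adjusted p = 0.403). Its pairs had proximal tubule medians of -0.28, -0.35 and -0.44, where the members' medians were 0.10, -0.04 and -0.07. In SS the proximal tubule medians were 0.28, -0.43 and -0.38 in the pairs in which the members' medians were 0.08, -0.07 and -0.07. There the thick ascending limb and distal tubule markers had a median of -0.24, with Egf at -0.31 (limma adjusted p = 0.0502), and 0 of 5 collecting duct markers were above 0 (median -0.11). None of these diet values passed the limma test. In strain 13 the corresponding medians were 0.00 and 0.09. Between strains on HS, the proximal tubule medians of the pairs were -0.81, -0.14 and -0.52, where the members had 0.08, 0.08 and 0.07. The members' medians in the pairs on LS were -0.02, 0.11 and 0.07, beside the proximal tubule medians given above. The part of the tubule markers in the members' values was not tested.

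Markers of other cells were fewer. Kdr, the 1 endothelial marker tested, was higher in strain 13 than in SS on HS, at 0.32. Of the muscle markers 4 of 4 were above 0 in SS on HS against LS, where Tnnt2 and Tagln rose by 0.56 and 0.70. On HS between strains 1 of 5 muscle markers was above 0 (median -0.14). That was Actc1, higher in strain 13 at 0.30, while Tnnt2 was lower at -0.48. Tnnt2 was also called for the difference in salt response, at -0.46 (limma adjusted p = 0.05 after rounding). The leukocyte marker Lyz2 had -2.46, -0.94 and -1.14 on HS between strains (limma adjusted p = 0.0321), while Cd53, the other one tested there, had 0.01, -0.14 and 0.03. Cd53 had 0.37 in strain 13 on HS against LS (unadjusted p = 0.00313, limma adjusted p = 0.324). The 2 leukocyte markers had unlike values on HS. Of the fat and blood markers 0 were called by limma, with an unadjusted p below 0.05 in 1 of 16 tests, that of Hba-a1 on HS (0.21).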

How the data were processed

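Each array held 2 channels, and the authors deposited 1 log ratio per probe and array (to 2 decimals) of unstated base, a unit set down here as other. No source used here gives the spot filter, background correction or normalization, and every array mean lay within 0.0049 of 0. The design had assumed a known log base. Names came from the platform annotation, updated with RefSeq (GRCr8) by gene identifier. A probe with several symbols, 1 of which matched the rule, was left out. Forward and dye-swap arrays were averaged into 12 RNA pairs. limma 3.58.1 in R 4.3.3 (lmFit, eBayes) fitted 4 group means, for probes with at least 2 of 3 replicates, tested on simulated data. Relative signs rest on the closure of the comparisons across 1164 probes (r = 0.58, against -0.23 and 0.17 with 1 group turned; genes are not independent); over the 18 members alone r was 0.19, too low to settle the sign. Members and lists were chosen with earlier results of these data known. Named are all members, with replicate values for the 3 of lowest p per comparison (others were added after their values were seen), and per metabolic list the called genes or, without any, that of lowest p; of the markers, called genes and some others, chosen after their values were seen. Alternatives changed the scaling, filter, orientation, replicates and fit. The number of arrays limits the precision.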

Additional observations from a re-analysis of the deposited data

Results flagged for a closer look

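In the LS strain comparison, 1 of 6 arrays stood far from the others. It held 726 probes with a value, against 1099 on the next, and its log ratios had an SD of 0.474, against 0.318 on the next. It is the forward array of replicate 1, on which Cycs read -0.64 and Atp5f1c 0.68. In total 12 sets of array values were examined in this way, and chance marks about 1 in 20.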

How the results depend on the processing

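With the forward arrays alone the members' median was 0.16 (strain 13 diet), 0.16 (SS diet), 0.10 (strains on LS) and 0.27 (strains on HS), and with the dye-swap arrays alone -0.12, -0.15, -0.06 and -0.06, and 0.07 for the difference in salt response. These single-orientation values hold the dye offset by construction. Members called were then 1 and 2 in SS, 1 and 1 on LS, and 4 and 6 on HS (forward, dye-swap), and Atp5f1c in SS (0.01, forward), Atp5f1b in SS (-0.13, dye-swap) and Atp5f1c on LS (-0.13, dye-swap) changed sign. Arrays scaled to equal spread called 1 member on LS, Cycs. Without the array with the conflicting title 1 was called in SS, Atp5f1b. Without the array with the fewest values Atp5f1c on LS was -0.03. The median on HS was 0.06 with centred arrays and 0.08 to 0.11 without each replicate in turn. Over 11 alternatives Cycs on LS ranged from -0.50 to -0.33, with limma adjusted p from 0.0234 to 0.373. Whether replicate numbers pair the samples differed by comparison. Same-number deviations had r of 0.21, 0.15 and 0.25 between both diet comparisons and of -0.67, -0.59 and -0.29 between SS diet and strains on HS, and over all 18 correlations r ran from -0.67 to 0.43. Titles name the SS RNAs of replicate 3 on an SS diet array and on strain arrays alike, so RNAs are probably shared there. With the replicate block 0 members were called in every comparison, and all probes called numbered 40 on HS. The background counts over all probes moved more: the 81 called on HS became 0, 12 and 19 without replicates 1, 2 and 3, 14 with equal spread and 0 with that group fitted alone, and the 37 in SS became 57, 0 and 0 without each replicate, 65 with equal spread, 60 without the array with the conflicting title and 0 fitted alone. On LS 0 became 22 with equal spread, and the 5 for the difference in salt response ran from 0 to 25. With a single orientation (forward, dye-swap) they were 15 and 3 in strain 13, 118 and 62 in SS, 70 and 51 on LS and 127 and 411 on HS. The count of members with a higher Cy5 side was 10 to 13 without either doubted array's pair or any 1 comparison, alternatives chosen after seeing the data.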
